A study of Mus musculus with 2 samples.

Results

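The genes of the cytosolic ribosome were followed across natural killer (NK) cells and ILC1-like cells of the mouse brain. Members were all genes whose symbol has the form Rpl, Rps or Rplp followed by a number and at most 1 letter and 1 further digit, in both libraries, which gave 82 of 31053 genes. The pattern leaves out 6 further ribosomal genes with other names, such as Rpsa and Fau, and these are described apart. Of the 82 members, 79 reached 100 unique molecular identifiers (UMIs, counted molecules) over both sides of each main comparison.

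The samples were 1 library of 3xTg-AD mice, a transgenic line that carries human genes and is used as a model of Alzheimer's disease, and 1 library of wildtype C57BL/6 mice. All animals were females 8 months old and untreated. NK cells were sorted from brain by fluorescence-activated cell sorting, and transcripts were read at their 5′ ends with the 10x Genomics Chromium chemistry. Neither how many mice were pooled per library nor the background strain of the 3xTg-AD line is stated in the labels, and line, preparation and library cannot be told apart. With 1 library per group no test was made. Intervals are exact 95% intervals for counting error only, and they hold neither animals nor variation between cells.

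Each cytosolic ribosome joins a small subunit, whose proteins are named Rps, and a large subunit, whose proteins are named Rpl, with ribosomal RNA. The Rplp genes encode the acidic stalk of the large subunit, which recruits translation factors. Messenger RNAs of ribosomal proteins start with a run of pyrimidines, the 5′ terminal oligopyrimidine (TOP) tract, through which mTORC1 signalling adjusts their translation together with that of elongation factors. In mice, NK cells lose Cd27 and gain Klrg1 as they mature. ILC1s are tissue-resident relatives of NK cells that carry Itga1 and Cxcr6.

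The start regions, where such a tract would lie, are shown for members on which the results turn, whether or not they hold a long run. They are Rpl12 and Rps18, which stood above the rest in ILC1-like cells of both libraries, Rps19, which did so in the 3xTg-AD library, 4 of the most abundant members, both members that stood above the rest in the 3xTg-AD library, and the member that varied most between cells. Each is 30 bases of RefSeq's start region on GRCm38.p6, from 15 bases before to 15 bases after the annotated start, written 5′ to 3′ on the gene's strand, with its longest run of C and T in capitals. Where a gene has several annotated starts, the one with the longest run is shown. Rps20, Rpl21 and Rps29 are named only. Below are Rpl12 (chr2:32961697-32961726, plus strand), Rps18 (chr17:33955651-33955680, minus strand), Rps19 (chr7:24884898-24884927, plus strand, 1 of 3 annotated starts), Rpl41 (chr10:128549154-128549183, minus strand), Rps27 (chr3:90213634-90213663, minus strand), Rps24 (chr14:24490663-24490692, plus strand, 1 of 2 annotated starts), Rpl13 (chr8:123102335-123102364, plus strand), Rpl13a (chr7:45128731-45128760, minus strand), Rpl7l1 (chr17:46782642-46782671, minus strand) and Rps2 (chr17:24720048-24720077, plus strand).
Rpl12: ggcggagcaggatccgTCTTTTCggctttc
Rps18: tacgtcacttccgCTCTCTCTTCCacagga
Rps19: gagggagcggggtgtggagggCTCTCCCac
Rpl41: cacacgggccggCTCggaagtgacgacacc
Rps27: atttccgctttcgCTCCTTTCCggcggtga
Rps24: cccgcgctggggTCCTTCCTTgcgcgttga
Rpl13: TTCCCTTTCgcctgattttgattggcgttt
Rpl13a: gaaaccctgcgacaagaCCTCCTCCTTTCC
Rpl7l1: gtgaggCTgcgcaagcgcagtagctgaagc
Rps2: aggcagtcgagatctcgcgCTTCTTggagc

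Of the 82 members, 62 had a start in the RefSeq table. Within 25 bases on either side of the start, an unbroken run of at least 8 pyrimidines on the gene's strand was found for 33 of these 62 members (53.2%), against 22.3% of 19407 genes with a start. The longest run had a median of 8.5 bases in members and 5 bases in all genes. The letters CTTTC, all of which can lie inside such a run, were found on the gene's strand in 30.6% of members and 7.43% of all genes. On the opposite strand they were found in 11.3% of members and 6.64% of all genes. Runs of at least 8 pyrimidines were found in 46.7% of 15 listed elongation, TOP and other ribosomal genes with a start, in 25.8% of 66 mitochondrial ribosomal protein genes and in 17.4% of 23 initiation factor genes. These letters are a description of the annotated windows. Rpl41, the most abundant member, had no run above 3 bases there.

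There were 5468455 UMIs over 1695 barcodes in the 3xTg-AD library and 5559995 UMIs over 1709 barcodes in the wildtype library, at a median depth of 2846 and 2930 UMIs per barcode. After filters, 1663 barcodes of the 3xTg-AD library and 1649 of the wildtype library were kept, and 1 barcode sequence occurred in both libraries. ILC1-like barcodes were those with at least 3 summed UMIs of Itga1, Cxcr6, Inpp4b, Gzmc and Tnfsf10, and there were 74 in the 3xTg-AD library and 90 in the wildtype library. NK barcodes numbered 1525 in the 3xTg-AD library and 1490 in the wildtype library. Cd27 had 160 UMIs over all NK barcodes of the 3xTg-AD library and 190 over those of the wildtype library. It may thus be expressed in barcodes where none was detected. Within NK barcodes, a gene counted as present from 1 UMI. By this rule 101 barcodes of the 3xTg-AD library and 127 of the wildtype library were Cd27+ Klrg1-, 38 and 29 were Cd27+ Klrg1+, 681 and 682 were Klrg1+ Cd27-, and 705 and 652 had neither.

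The classes were set beside lists of markers. These lists were chosen with earlier results of these data known, so the counts describe the classes and are no independent support for them. All 13 listed genes of late NK cells, among them Zeb2, S1pr5 and Cma1, were higher in Klrg1+ Cd27- than in Cd27+ Klrg1- barcodes in both libraries. Of the listed early NK genes with enough UMIs, 12 of 13 in the 3xTg-AD library and 13 of 14 in the wildtype library were lower there. In ILC1-like against NK barcodes, all 11 listed genes that NK cells hold above ILC1s were lower in both libraries, and 8 of 11 listed ILC1 genes outside the rule in the 3xTg-AD library and 10 of 12 in the wildtype library were higher. Eomes, the NK lineage factor, was not absent, with 195 CPM (counts per 1000000 UMIs) in ILC1-like and 238 CPM in NK barcodes of the 3xTg-AD library, and 200.2 CPM in ILC1-like and 218 CPM in NK barcodes of the wildtype library. Gzma, a granzyme of mature NK cells, had 1397 CPM in ILC1-like barcodes of the 3xTg-AD library and 4246 CPM in those of the wildtype library. Against this, NK barcodes held 19812 CPM of Gzma in the 3xTg-AD library and 20079 CPM in the wildtype library.

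Ribosomal protein transcripts made up a large part of all UMIs, and their share followed cell class in the same order in both libraries. It was highest in ILC1-like barcodes, and among NK barcodes it was lower at each step from Cd27+ Klrg1- to Klrg1+ Cd27-. In the 3xTg-AD library the members took 30.1% of summed UMIs in ILC1-like barcodes, 21.7% in Cd27+ Klrg1-, 18.2% in Cd27+ Klrg1+ and 15.8% in Klrg1+ Cd27- NK barcodes. In the wildtype library they took 28.3%, 23.2%, 20.1% and 17.5% in the same classes. NK barcodes with neither gene detected held 17.4% in the 3xTg-AD library and 19.8% in the wildtype library. These barcodes were shallower, with medians of 2509 and 2530 UMIs.

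**Figure D1:**
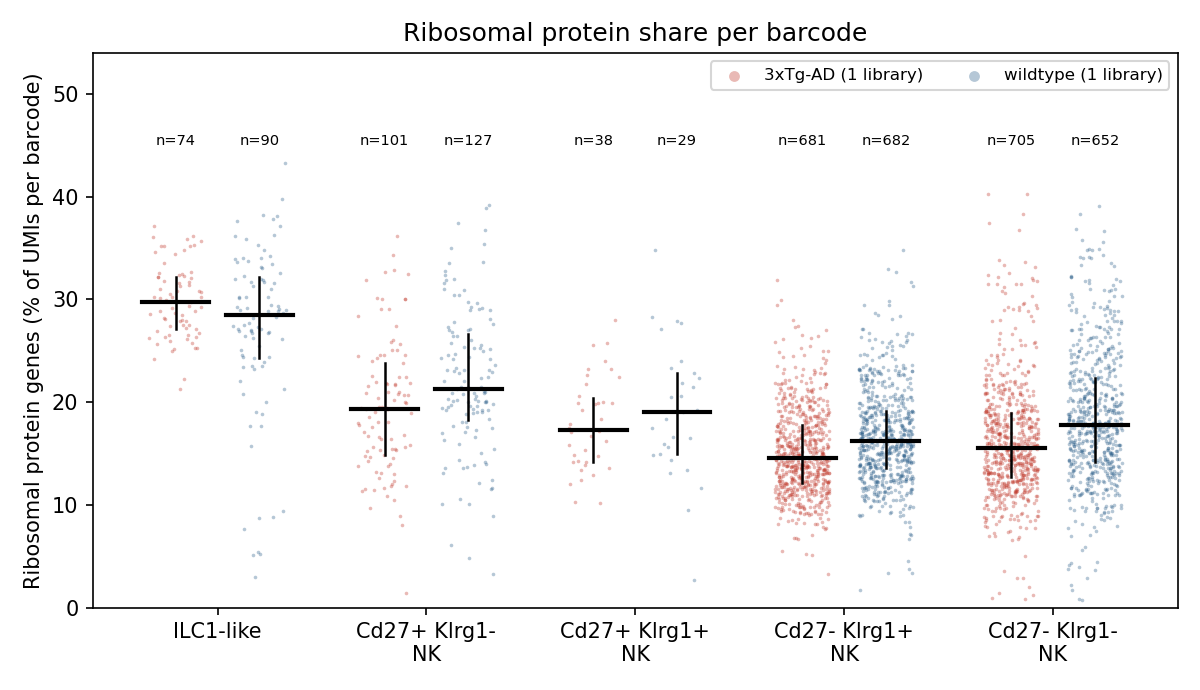
Share of UMIs from ribosomal protein genes (% per barcode) by class, with 3xTg-AD left of wildtype, 1 library each. Points are barcodes, thick bars are medians, thin bars span the quartiles, and n is the number of barcodes. ILC1-like medians are 29.7% and 28.5%, and Klrg1+ Cd27- medians are 14.5% and 16.3%.

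Single barcodes showed the same order with wide overlap between NK stages. In the 3xTg-AD library the median share per barcode was 19.4% (quartiles 14.9 to 23.8) in Cd27+ Klrg1-, 17.3% (14.2 to 20.4) in Cd27+ Klrg1+ and 14.5% (12.1 to 17.8) in Klrg1+ Cd27- barcodes. In the wildtype library it was 21.3% (18.2 to 26.6), 19.1% (14.995 to 22.9) and 16.3% (13.6 to 19.2). Of Klrg1+ Cd27- barcodes, 16.2% in the 3xTg-AD library and 15.98% in the wildtype library lay above the median of the Cd27+ Klrg1- barcodes of their library. The standard deviation over NK barcodes was 5.20 percentage points in the 3xTg-AD library and 5.91 in the wildtype library, against 0.710 and 0.747 that counting alone gives at their depths.

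ILC1-like and NK barcodes overlapped to an extent that differed between the libraries, a difference that was not tested. In the 3xTg-AD library ILC1-like shares ran from 21.3% to 37.1%, and every ILC1-like barcode lay above the upper quartile of NK barcodes (18.8%). In the wildtype library ILC1-like shares ran from 2.96% to 43.3%, and 82.2% lay above the upper quartile of NK barcodes (21.3%) while 8.89% lay below the lower quartile (14.0%). ILC1-like barcodes also held more UMIs outside the members, with medians of 3797 against 2358 in NK barcodes of the 3xTg-AD library and 3692 against 2369 in those of the wildtype library. Medians of ribosomal protein UMIs were 1699 against 409 in the 3xTg-AD library and 1524 against 483 in the wildtype library. Both parts were thus larger in ILC1-like barcodes, and a share alone does not give molecules per cell. The rule of at least 3 summed UMIs is also met more easily in deep barcodes. Median depth was 5513 against 2790 UMIs in the 3xTg-AD library and 5227 against 2864 in the wildtype library. The part of the rule in this depth was not tested.

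Summed shares in Klrg1+ Cd27- barcodes were 0.730 of those in Cd27+ Klrg1- barcodes (0.725 to 0.736) in the 3xTg-AD library and 0.751 (0.746 to 0.756) in the wildtype library. ILC1-like shares were 1.77 times those of all NK barcodes (1.76 to 1.79) in the 3xTg-AD library and 1.497 times (1.49 to 1.51) in the wildtype library. The split between subunits was similar in all classes, and large-subunit genes took from 56.5% to 57.7% of ribosomal protein UMIs in every class of both libraries.

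From 2000 UMIs up the share was higher in deeper barcodes, and the classes differed in depth, so they were also compared within bands of depth. Among barcodes of 3000 to under 4500 UMIs, median shares were 28.7% in 20 ILC1-like and 16.6% in 458 NK barcodes of the 3xTg-AD library, and 28.3% in 21 ILC1-like and 17.3% in 499 NK barcodes of the wildtype library. In that band Klrg1+ Cd27- barcodes had medians of 15.5% and Cd27+ Klrg1- barcodes 20.9% in the 3xTg-AD library. The wildtype library gave 16.3% and 23.6% in these classes. Cd27+ Klrg1+ barcodes lay between them, nearer to Klrg1+ Cd27-, at 16.3% in 17 barcodes of the 3xTg-AD library and 17.9% in 14 of the wildtype library. The order of the stages was the opposite below 2000 UMIs in the 3xTg-AD library, where 76 Klrg1+ Cd27- barcodes had a median of 13.5% and 11 Cd27+ Klrg1- barcodes one of 11.9%. From 4500 UMIs up, the 17 Cd27+ Klrg1- barcodes of the 3xTg-AD library reached 30.1%, close to the 30.7% of its 51 ILC1-like barcodes, and the 19 of the wildtype library reached 26.8%, against 29.1% in 57 ILC1-like barcodes.

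**Figure D2:**
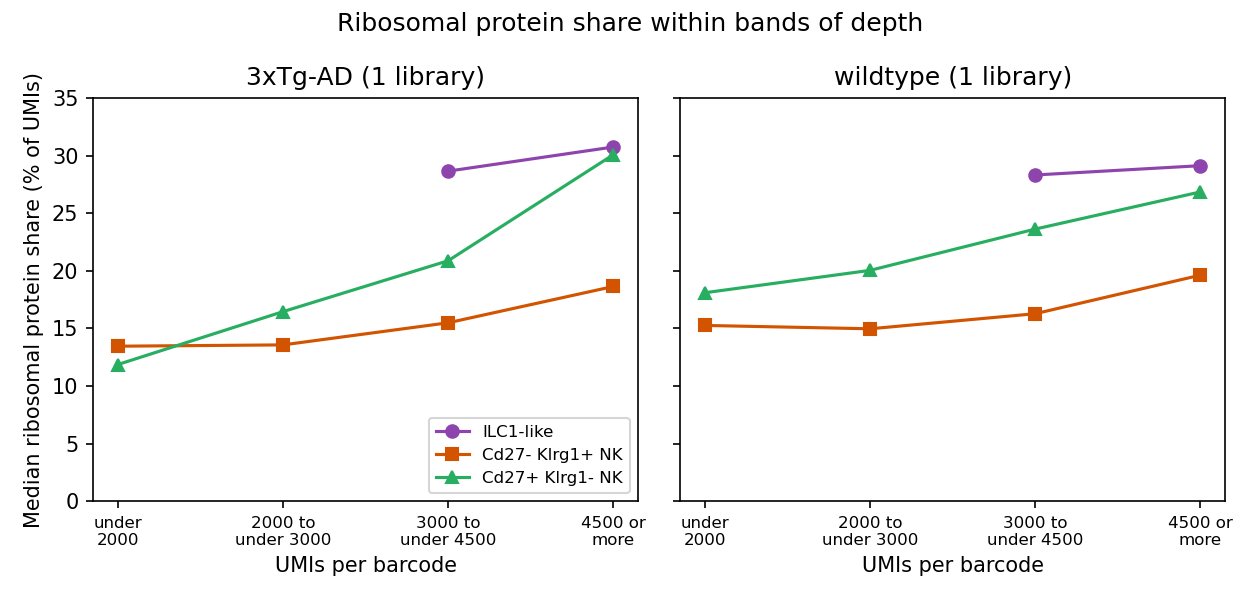
Median share of ribosomal protein UMIs (% per barcode) against bands of UMIs per barcode, in the 3xTg-AD library (left) and the wildtype library (right). Bands with under 10 barcodes of a class are not drawn. ILC1-like barcodes lie at 28.7% and 30.7% on the left and at 28.3% and 29.1% on the right, above both NK stages.

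Other values differed between these classes. Mitochondrial genes took 1.84% of UMIs in ILC1-like and 1.28% in NK barcodes of the 3xTg-AD library, and 1.99% and 1.48% in the wildtype library. They took 1.18% in Klrg1+ Cd27- and 1.52% in Cd27+ Klrg1- barcodes of the 3xTg-AD library, and 1.33% and 1.79% in the wildtype library. Immediate-early and heat-shock genes took 0.0320% in ILC1-like and 0.0921% in NK barcodes of the 3xTg-AD library, and 0.0323% and 0.0528% in the wildtype library. Without mitochondrial genes and Malat1 in the total, the ratios of the shares were 0.728 and 0.747 for Klrg1+ Cd27- over Cd27+ Klrg1- and 1.78 and 1.504 for ILC1-like over NK barcodes, in the 3xTg-AD and wildtype libraries. The part of the immediate-early and heat-shock genes in the class differences was not tested. Ighm, an immunoglobulin gene on the B cell list, had 26.0 CPM in Klrg1+ Cd27- and 146 CPM in Cd27+ Klrg1- barcodes of the 3xTg-AD library, and 192 CPM in its ILC1-like barcodes. In the wildtype library it had 23.4 CPM, 97.4 CPM and 109 CPM in these classes. In ILC1-like barcodes, 4 of 6 genes of that list in the 3xTg-AD library and 5 of 6 in the wildtype library were at 0. The T cell list summed to 30.4 CPM in Klrg1+ Cd27- and 70.3 CPM in Cd27+ Klrg1- barcodes of the 3xTg-AD library, and to 17.5 CPM and 42.8 CPM in the wildtype library, with 5 of 8 genes at 0 in each class. Its sums in ILC1-like barcodes were 40.9 CPM in the 3xTg-AD library and 23.8 CPM in the wildtype library. The microglial list of 9 genes summed to 19.2 CPM in ILC1-like against 93.6 CPM in NK barcodes of the 3xTg-AD library, and to 23.8 against 59.6 CPM in the wildtype library. The part of these markers in the shares was not tested beyond leaving out barcodes with 2 or more UMIs of any such list, under which the ratio of Klrg1+ Cd27- over Cd27+ Klrg1- barcodes was 0.797 in the 3xTg-AD library and 0.764 in the wildtype library.

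Member by member, the stage difference was spread over nearly the whole family. In Klrg1+ Cd27- over Cd27+ Klrg1- barcodes, 70 of 79 members in the 3xTg-AD library and 67 of 79 in the wildtype library were at least 1.2-fold lower in CPM. Among all genes with 100 UMIs, 20.2% of 3624 in the 3xTg-AD library and 20.4% of 3694 in the wildtype library were. No member was 1.2-fold higher in either library, against 28.8% and 27.4% of all genes. At 1.5-fold lower there were 14 members in the 3xTg-AD library and 5 in the wildtype library, with backgrounds of 4.39% and 4.68%. The members' median log2 ratio was -0.43 in the 3xTg-AD library and -0.42 in the wildtype library, while that of all genes was 0.05 in both.

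Rpl41, which encodes the smallest ribosomal protein, was the most abundant member in NK barcodes, with 6433 CPM in the 3xTg-AD library and 6999 CPM in the wildtype library. Along the stages it had 8259, 7192 and 6185 CPM in Cd27+ Klrg1-, Cd27+ Klrg1+ and Klrg1+ Cd27- barcodes of the 3xTg-AD library. In the wildtype library it had 8275, 7078 and 6743 CPM in that order. It was thus lower at each step in both libraries. Its ratio of Klrg1+ Cd27- over Cd27+ Klrg1- was 0.749 (0.719 to 0.780) in the 3xTg-AD library and 0.815 (0.785 to 0.846) in the wildtype library.

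Rps29, Rps24 and Rps27 of the small subunit and Rpl13 of the large subunit followed in abundance. Rps24 had 5776 CPM in NK barcodes of the 3xTg-AD library and 6556 CPM in those of the wildtype library. Its stage ratios were 0.717 (0.687 to 0.749) in the 3xTg-AD library and 0.729 (0.702 to 0.757) in the wildtype library. Rpl13 had 3970 CPM in Klrg1+ Cd27- against 5751 CPM in Cd27+ Klrg1- barcodes of the 3xTg-AD library, and 4485 against 6537 CPM in the wildtype library, with stage ratios of 0.690 (0.657 to 0.725) and 0.686 (0.658 to 0.716). These levels are molecules counted at 5′ ends, so they were not scaled by transcript length.

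The stalk genes lay close to the median member between stages. Rplp0, the stalk's base, had 3383 CPM in Klrg1+ Cd27- and 4825 CPM in Cd27+ Klrg1- barcodes of the 3xTg-AD library, and 3545 CPM and 4558 CPM in the wildtype library. Its partners Rplp1 and Rplp2, the acidic proteins that form the stalk's tips, had stage ratios of 0.716 and 0.773 in the 3xTg-AD library and of 0.697 and 0.772 in the wildtype library. In ILC1-like over NK barcodes, the ratios of Rplp0, Rplp1 and Rplp2 were 1.87, 1.98 and 1.58 in the 3xTg-AD library and 1.45, 1.62 and 1.32 in the wildtype library. All 3 were higher in ILC1-like barcodes of both libraries, and Rplp2 had the lowest ratio of them in both.

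To find members that left the common pattern, each member was taken as a share of ribosomal protein UMIs and its ratio was divided by that of the median member. A member was called departing at 0.322 or more on the log2 scale from the median member with an interval that left the median out, in both libraries for comparisons of classes. No member departed between the NK stages in both libraries. Across the 79 members, the deviations of the 2 libraries had a Spearman correlation of 0.62 and a Pearson correlation of 0.60 over genes, which are not independent replicates.

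**Figure D3:**
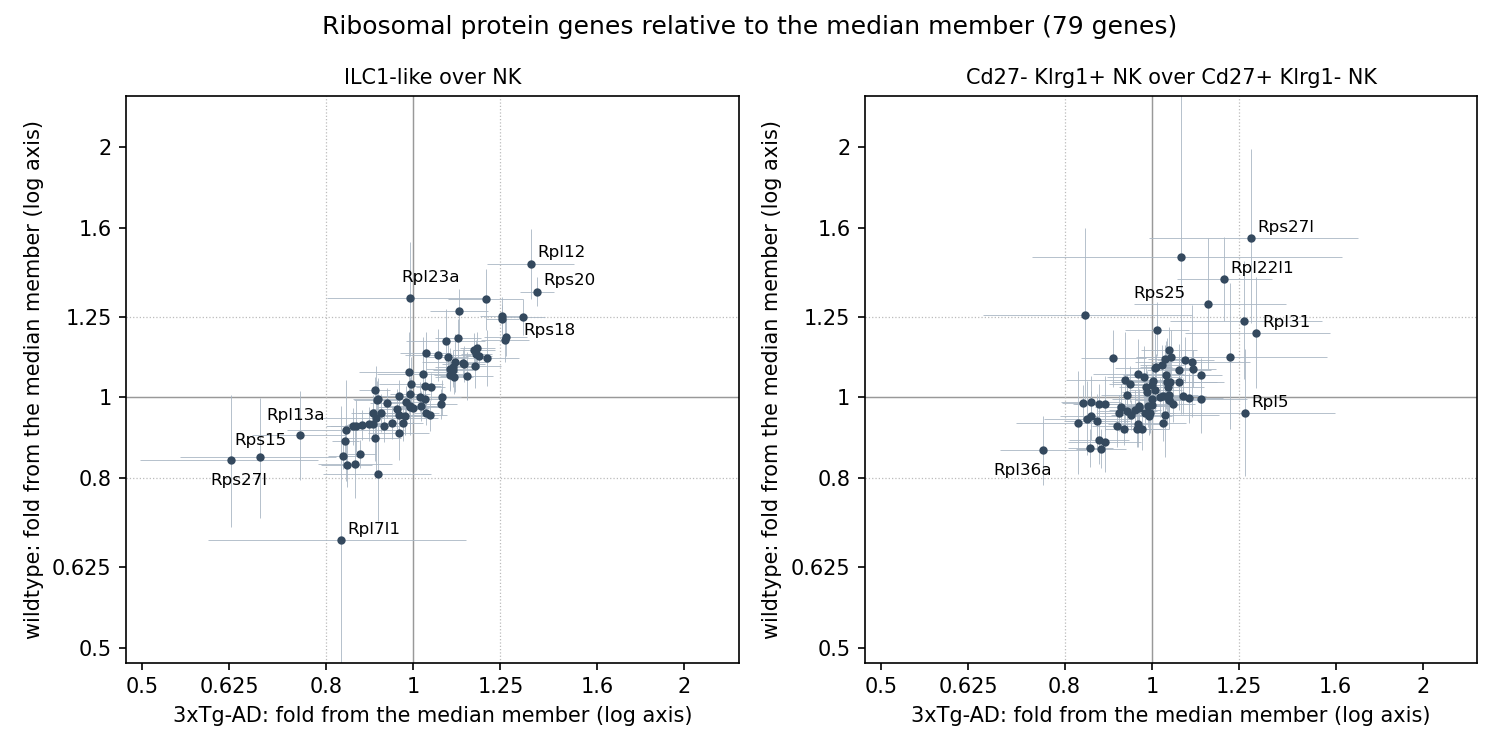
Ratio of each of 79 ribosomal protein genes relative to the median member in the 3xTg-AD library (horizontal, log axis) and the wildtype library (vertical, log axis), for ILC1-like over NK (left) and Klrg1+ Cd27- over Cd27+ Klrg1- NK barcodes (right). Bars are 95% counting intervals and dotted lines mark 0.322 on the log2 scale in either direction. Rpl12 and Rps20 lie beyond the line in both libraries on the left.

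Among the paralog genes, Rps27l and Rpl22l1 had point values above the family in both libraries. Rps27l, a paralog of Rps27 known as a p53 target, lay 1.29-fold above the median member (0.992 to 1.70) in the 3xTg-AD library and 1.55-fold (1.23 to 1.99) in the wildtype library. Its level was 185 CPM in Klrg1+ Cd27- and 193 CPM in Cd27+ Klrg1- barcodes of the 3xTg-AD library, and 224 CPM and 192 CPM in the wildtype library, with CPM ratios of 0.955 (0.735 to 1.26) and 1.16 (0.920 to 1.49). Rpl22l1, a paralog of Rpl22, lay 1.203-fold above the median member (1.07 to 1.36) in the 3xTg-AD library and 1.39-fold (1.24 to 1.56) in the wildtype library, and had 815 against 914 CPM and 842 against 810 CPM in Klrg1+ Cd27- and Cd27+ Klrg1- barcodes. Rpl7l1, a paralog of Rpl7 and the lowest of the 79 members, had intervals that held the median member in both libraries. In the wildtype library Rps25 also lay 1.29-fold above the median member (1.08 to 1.56), against 1.16-fold (0.954 to 1.41) in the 3xTg-AD library.

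Rpl3l, Rpl10l and Rpl39l are paralogs known from muscle and testis. Rpl3l and Rpl10l had 0 UMIs among 4635246 UMIs of NK barcodes in the 3xTg-AD library and 4634577 in the wildtype library, which allows up to 0.647 CPM in each. They had 0 UMIs in ILC1-like barcodes too, which allows up to 7.21 CPM in the 3xTg-AD library and 5.95 CPM in the wildtype library. Rpl39l had 1 UMI in NK barcodes of the 3xTg-AD library and 3 in those of the wildtype library. The main genes of these pairs carried the counts, for example Rpl3 with 1702 CPM in NK barcodes of the 3xTg-AD library and 1899 CPM in those of the wildtype library.

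In the 3xTg-AD library alone, Rpl31 lay 1.31-fold and Rpl5 1.27-fold above the median member in Klrg1+ Cd27- over Cd27+ Klrg1- barcodes. Rpl36a lay below it, at 0.757 (0.679 to 0.845). The wildtype library gave 1.195 for Rpl31, 0.957 for Rpl5 and 0.863 (0.785 to 0.951) for Rpl36a. Rpl5 carries the 5S ribosomal RNA into the large subunit and binds Mdm2 when ribosome assembly fails. These genes were named after their values were seen.

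Almost every member was higher in ILC1-like than in NK barcodes. In both libraries 77 of 79 members were at least 1.2-fold higher in CPM and none was 1.2-fold lower. Of all genes tested, 17.7% of 5627 in the 3xTg-AD library and 18.6% of 5560 in the wildtype library were 1.2-fold higher, while 50.5% and 41.8% were 1.2-fold lower. At 1.5-fold, 70 members of the 3xTg-AD library and 36 of the wildtype library were higher, with backgrounds of 8.07% and 7.1%. Relative to the median of all genes, which was -0.27 and -0.17 on the log2 scale, the members' median was 1.07 in the 3xTg-AD library and 0.73 in the wildtype library. Scaled by that of genes outside the family, 69 members of the wildtype library passed 1.5-fold.

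Set against all NK barcodes, Rpl12, Rps20 and Rps18 stood above the family in ILC1-like barcodes of both libraries. Like almost every member, they were also higher in Cd27+ Klrg1- than in Klrg1+ Cd27- NK barcodes. Rps20 had 3396 against 2208 CPM there in the 3xTg-AD library and 3969 against 2581 CPM in the wildtype library. In the same order Rpl12 had 551 against 339 and 592 against 413 CPM, and Rps18 2397 against 1519 and 2281 against 1689 CPM. ILC1-like barcodes were not compared with Cd27+ Klrg1- barcodes member by member. Rpl12, which sits at the base of the stalk, had 919 CPM in ILC1-like and 391 CPM in NK barcodes of the 3xTg-AD library, and 1025 CPM and 480 CPM in the wildtype library. That was 1.35-fold (1.21 to 1.51) and 1.45-fold (1.31 to 1.59) above the median member. Rps20, a protein of the small subunit's head, had 5870 CPM in ILC1-like and 2456 CPM in NK barcodes of the 3xTg-AD library, and 5788 CPM and 2930 CPM in the wildtype library, which lay 1.37-fold (1.31 to 1.43) and 1.34-fold (1.29 to 1.395) above it. Rps18, also of the head, had 3566 CPM in ILC1-like and 1632 CPM in NK barcodes of the 3xTg-AD library, and 3401 CPM and 1842 CPM in the wildtype library, at 1.26-fold (1.19 to 1.33) and 1.253-fold (1.19 to 1.32). When every barcode was thinned to 1400 UMIs before classes were called, Rps20 alone still departed in both libraries, with 13 and 36 ILC1-like barcodes left. Rpl12 then lay at 1.21-fold in the 3xTg-AD library and 1.56-fold in the wildtype library on 14 and 50 UMIs in ILC1-like barcodes, and Rps18 at 1.301-fold and 1.06-fold on 64 and 125 UMIs.

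Rps19 and Rps15a lay at the threshold, at 1.32-fold and 1.26-fold above the median member in the 3xTg-AD library and at 1.249-fold and 1.24-fold in the wildtype library. Mutations of RPS19 cause Diamond-Blackfan anaemia in humans. Rpl3, which helps form the peptidyl transferase centre, and Rpl10a were 1.27-fold and 1.26-fold above it in the 3xTg-AD library, against 1.18-fold and 1.17-fold in the wildtype library. Rpl23a and Rpl17, both near the exit of the peptide tunnel, and Rpl28 passed the threshold in the wildtype library alone, at 1.32-fold, 1.31-fold and 1.27-fold, against 0.991, 1.205-fold and 1.12-fold in the 3xTg-AD library.

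At the lower end, Rps27l had 207 CPM in ILC1-like and 189 CPM in NK barcodes of the 3xTg-AD library, or 0.628 of the median member (0.497 to 0.784), and 270 CPM and 217 CPM in the wildtype library, or 0.841 (0.698 to 1.01). Rps15 lay at 0.675 and 0.847, and Rpl13a at 0.748 and 0.902, of the median member in the 3xTg-AD and wildtype libraries. Rpl7l1 lay at 0.673 (0.449 to 0.977) in the wildtype library and at 0.832 (0.591 to 1.15) in the 3xTg-AD library. Of the most abundant members, 3 lay below the median member in both libraries, with Rpl41 at 0.903, Rps29 at 0.841 and Rps27 at 0.836 of the median member in the 3xTg-AD library and at 0.928, 0.886 and 0.851 in the wildtype library. Deviations of the 79 members had a Spearman correlation of 0.89 and a Pearson correlation of 0.84 between the libraries.

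Between libraries, NK barcodes of 3xTg-AD mice held 17.0% ribosomal protein UMIs, against 18.9% in wildtype mice, a ratio of 0.898 (0.895 to 0.900). Medians per barcode were 15.3% (quartiles 12.5 to 18.8) in the 3xTg-AD library and 17.2% (14.0 to 21.3) in the wildtype library, so the distributions overlapped widely. The ratio lay below 1 in each NK class, at 0.933 in Cd27+ Klrg1-, 0.907 in Cd27+ Klrg1+, 0.908 in Klrg1+ Cd27- and 0.880 in barcodes with neither gene. In ILC1-like barcodes it was 1.06 (1.06 to 1.07). Medians per barcode there were 29.7% in the 3xTg-AD library and 28.5% in the wildtype library. The upper quartile was 32.2% in both, and the lower quartiles were 27.2% and 24.3%.

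Several values differed between the libraries beside this share. In NK barcodes Malat1, a nuclear RNA, took 0.935% of UMIs in the 3xTg-AD library and 0.618% in the wildtype library, mitochondrial genes took 1.28% and 1.48%, and 7 immediate-early and heat-shock genes took 0.0921% and 0.0528%. Without mitochondrial genes and Malat1 in the total, the ratio of the NK shares was 0.899. The part of the immediate-early and heat-shock genes was not tested. Median depth was 2790 UMIs in NK barcodes of the 3xTg-AD library and 2864 in those of the wildtype library, and among barcodes of 3000 to under 4500 UMIs the ratio was 0.928.

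**Figure D4:**
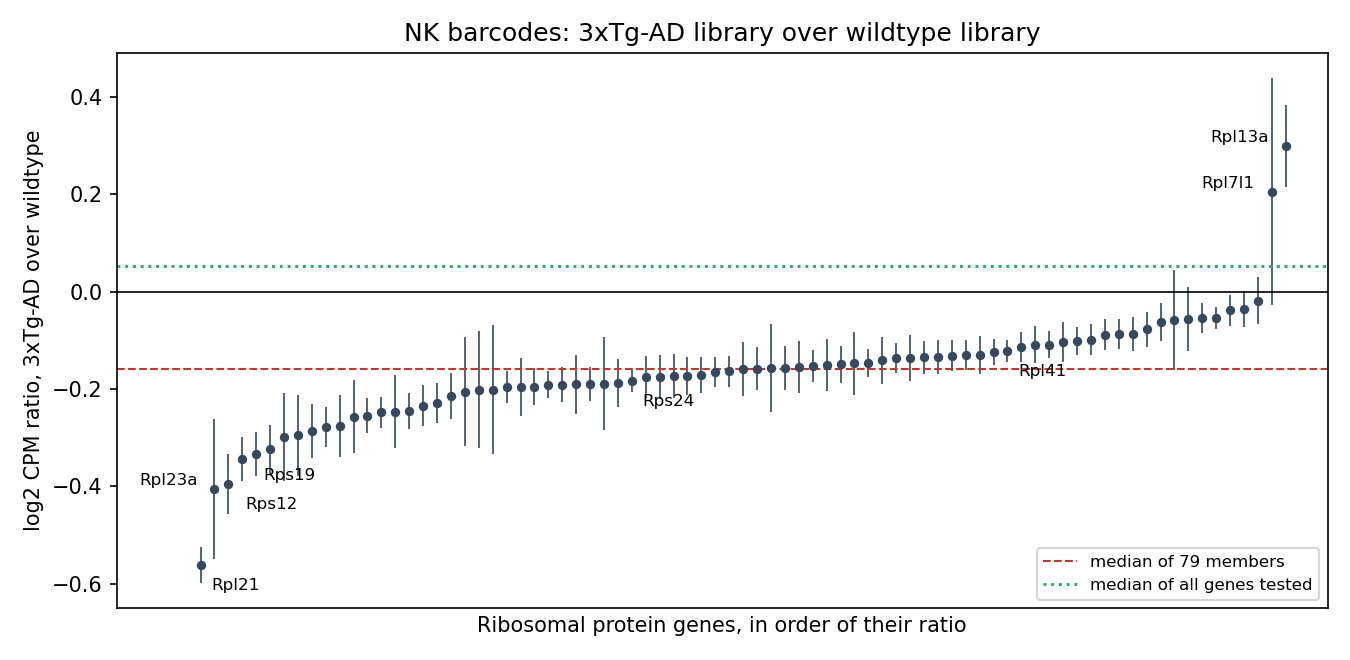
log2 CPM ratio of the 3xTg-AD over the wildtype library in NK barcodes for 79 ribosomal protein genes, ordered by ratio, with 95% counting intervals. The dashed line is the members' median (-0.16) and the dotted line that of all genes tested (0.05). Rpl13a and Rpl7l1 lie above 0, and Rpl21 is lowest.

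The difference was small in most members and ran in the same direction. Of 79 members, 77 had a lower CPM in NK barcodes of the 3xTg-AD library than in those of the wildtype library, with a median log2 ratio of -0.16 against 0.05 for all genes. The share of all genes with a lower CPM was not counted, but a median above 0 means that most were not lower. Past 1.2-fold there were 11 lower members, with 10.4% of 7203 genes tested lower by as much, and 1 higher member, with 19.6% of all genes higher. None reached 1.5-fold in either direction, against 2.5% of all genes lower and 3.37% higher. The count of members 1.2-fold lower is therefore near the background share, and that of members 1.2-fold higher is below it. The direction that 77 of 79 members had in common has only the median of all genes beside it. In ILC1-like barcodes 53 of 78 members were higher in the 3xTg-AD library, 3 of them by 1.2-fold (15.1% of 1211 genes) while 4 were lower by 1.2-fold (16.4%). The members' median log2 ratio there was 0.08, against -0.01 for all genes, whose share above 1 was not counted.

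Rpl21, a protein of the large subunit (chr5:146832890-146837032, plus strand), had the lowest ratio of the members. Its level in NK barcodes was 2149 CPM in the 3xTg-AD library and 3172 CPM in the wildtype library, a CPM ratio of 0.678 (0.660 to 0.695) and 0.756 of the median member (0.737 to 0.776). The deficit relative to the median member was found in every class, at 0.724 in Cd27+ Klrg1-, 0.799 in Cd27+ Klrg1+, 0.753 in Klrg1+ Cd27-, 0.769 in barcodes with neither gene and 0.772 in ILC1-like barcodes. Rpl21 also has the most near-identical copies of any member, with 57 other genes whose transcripts match its coding sequence at 95% identity or more over at least 80% of its length. The match is over coding sequence, while transcripts were read at their 5′ ends. How reads that match several such copies were counted is uncertain, and the part of the copies in this difference was not tested.

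Rpl13a (chr7:45125558-45128761, minus strand), known in human monocytes for a role in silencing inflammatory mRNAs outside the ribosome, had the highest ratio of the members. It had 556 CPM in NK barcodes of the 3xTg-AD library and 452 CPM in those of the wildtype library, a CPM ratio of 1.23 (1.16 to 1.304) and 1.37-fold above the median member (1.296 to 1.45). Relative to the median member it was above 1 in each class, from 1.14 (0.970 to 1.34) in ILC1-like barcodes to 1.47 (1.35 to 1.61) in Klrg1+ Cd27- barcodes. It has 3 near-identical copies, against a median of 5 over the members. Rpl7l1 had 331 UMIs in NK barcodes of the 3xTg-AD library and 287 in those of the wildtype library, which put it 1.29-fold above the median member (1.10 to 1.51). The interval of its CPM ratio, 0.982 to 1.35, held 1.

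**Figure D5:**
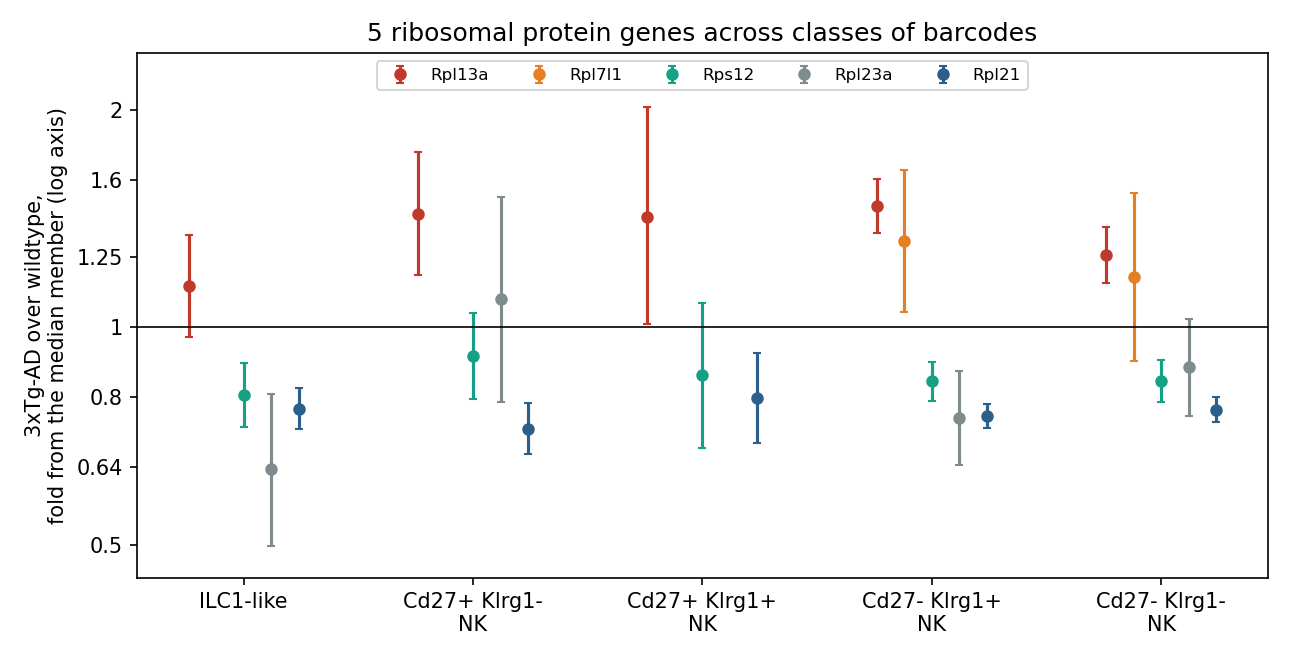
Ratio of the 3xTg-AD over the wildtype library relative to the median member (log axis) for 5 ribosomal protein genes in 5 classes of barcodes, with 95% counting intervals. Genes with under 100 UMIs in a class are not drawn. Rpl21 lies from 0.724 to 0.799 and Rpl13a from 1.14 to 1.47.

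Rpl21 was the 1 member past the threshold below and Rpl7l1 was the nearer of both past it above, and just outside it below stood Rpl23a at 0.843 (0.763 to 0.931) and Rps12 at 0.849 (0.814 to 0.886) of the median member. Rps12 had 822 CPM in NK barcodes of the 3xTg-AD library and 1081 CPM in those of the wildtype library, and lay below the median member in every class, from 0.806 to 0.913. It has 22 near-identical copies and Rpl23a has 19. Among the abundant members, Rps29 lay at 1.08-fold, Rpl41 at 1.03-fold, Rps27 at 1.02-fold and Rps24 at 0.983 of the median member. Rps19, with no near-identical copy, lay at 0.879 (0.853 to 0.907). Other members with 22 or more copies were Rpl7a with 31, Rpl29 with 27 and Rpl17 with 22. When every barcode was thinned to the same number of UMIs, Rpl7a lay at 0.976, Rpl29 at 1.01-fold and Rpl17 at 0.911 of the median member. Rps12 then lay at 0.844, Rpl23a at 0.750 and Rpl21 at 0.741. A relation between copy number and ratio was not tested.

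Few members varied between NK barcodes beyond what counting gives once each barcode was thinned to 200 ribosomal protein UMIs. The measure was the Fano factor, the variance over the mean across barcodes, which is about 1 for counting alone. It was taken over 1399 of 1525 NK barcodes in the 3xTg-AD library and 1361 of 1490 in the wildtype library, the rest being shallower. The median member had 1.01 in the 3xTg-AD library and 1.02 in the wildtype library. Rps2, a small-subunit protein near the entry of the mRNA channel, had the highest value, with 1.48 in the 3xTg-AD library and 1.56 in the wildtype library. Of barcodes thinned to 200, 2.86% in the 3xTg-AD library and 3.60% in the wildtype library held 8 or more Rps2 UMIs, where a binomial share at the mean of 2.85 and 2.87 UMIs gives 0.852% and 0.883%.

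Rps27 followed with Fano factors of 1.23 in both libraries, then Rps29 with 1.22 in the 3xTg-AD library and 1.17 in the wildtype library. Rpl22l1 had 1.15 and 1.17, Rplp0 had 1.18 and 1.15, and Rps19 had 1.12 and 1.10 in the 3xTg-AD and wildtype libraries. The members above 1.2 were Rps2, Rps27 and Rps29 in the 3xTg-AD library, and Rps2 and Rps27 in the wildtype library. Smaller values above 1 in both libraries were also found, such as Rpl10 at 1.17 and 1.10, Rpl37a at 1.16 and 1.09 and Rpl41 at 1.11 and 1.08. The limit of 1.2 therefore does not mark where counting ends. At 100 UMIs per barcode none passed 1.2, with Rps2 at 1.10 in the 3xTg-AD library and 1.17 in the wildtype library. Any excess over counting gets smaller with thinning, so 1.2 is a stricter limit there. Rps2 has 18 near-identical copies.

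The rest of the translation machinery was set beside the family. The 6 ribosomal genes outside the naming pattern had a median log2 ratio of -0.43 in the 3xTg-AD library and -0.44 in the wildtype library for Klrg1+ Cd27- over Cd27+ Klrg1- barcodes, as the family had. For ILC1-like over NK barcodes they had 0.54 and 0.59. Rpsa, which encodes a small-subunit protein also known as the laminin receptor, had 7486 CPM in ILC1-like and 3839 CPM in NK barcodes of the 3xTg-AD library, and 6951 CPM and 4204 CPM in the wildtype library. Between the libraries, in NK barcodes, the 6 genes had a median log2 ratio of 0.03, against -0.16 for the family, with 2 genes at least 1.2-fold higher in the 3xTg-AD library and 1 lower (19.6% and 10.4% of all genes). The lower one was Rack1, a scaffold on the small subunit, with 371 CPM in the 3xTg-AD library and 457 CPM in the wildtype library.

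Elongation factors and other known TOP genes had median log2 ratios nearer to 0 than the family between stages. Of 16 such genes, 7 in the 3xTg-AD library and 8 in the wildtype library were at least 1.2-fold lower in Klrg1+ Cd27- than in Cd27+ Klrg1- barcodes and none was 1.2-fold higher, with median log2 ratios of -0.24 and -0.27. Of all genes with 100 UMIs, 20.2% and 20.4% were lower by as much and 28.8% and 27.4% higher, while the lists of translation genes needed 20 UMIs. In ILC1-like over NK barcodes all 16 in the 3xTg-AD library and 13 in the wildtype library were at least 1.2-fold higher, against 17.7% and 18.6% of all genes, with medians of 0.68 and 0.51. Eef1a1, which delivers aminoacyl-tRNA to the ribosome, had 10886 CPM in ILC1-like and 5669 CPM in NK barcodes of the 3xTg-AD library, and 10468 CPM and 6189 CPM in the wildtype library. Eef1b2, its nucleotide exchange factor, had log2 ratios of 0.98 in the 3xTg-AD library and 0.66 in the wildtype library there. Npm1, a nucleolar chaperone of ribosome assembly, had 0.87 and 0.69. Between the libraries none of the 16 passed 1.2-fold in NK barcodes, and their median was 0.00.

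Initiation factors and mitochondrial ribosomal proteins had medians near 0 in these comparisons. In ILC1-like over NK barcodes this put them above the median of all genes. That median was -0.27 in the 3xTg-AD library and -0.17 in the wildtype library. The 28 initiation factor genes had median log2 ratios of -0.03 in the 3xTg-AD library and 0.13 in the wildtype library between the stages, with 5 and 6 genes 1.2-fold higher (28.8% and 27.4% of all genes) and 5 and 4 lower (20.2% and 20.4%). For ILC1-like over NK barcodes their medians were -0.09 and -0.06. There 5 and 2 of them were at least 1.2-fold higher (17.7% and 18.6% of all genes), and 12 and 6 were lower (50.5% and 41.8%). Between libraries, in NK barcodes, 1 of the 28 was at least 1.2-fold higher in the 3xTg-AD library and 1 lower (19.6% and 10.4% of all genes), with a median of 0.02. The higher was Eif3j1, a loosely bound subunit of the eIF3 complex, with 188 CPM in the 3xTg-AD library and 127 CPM in the wildtype library, and the lower was Eif1a, with 72.3 CPM and 89.3 CPM. Of 75 mitochondrial ribosomal protein genes, 74 had enough UMIs between stages, with medians of -0.10 in the 3xTg-AD library and 0.05 in the wildtype library. For ILC1-like over NK barcodes their medians were -0.03 and 0.04. There 18 and 21 of the 75 were at least 1.2-fold higher and 24 and 14 lower, beside the same shares of all genes. Between the libraries their median in NK barcodes was 0.00, against -0.16 for the cytosolic family.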

How the data were processed

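The authors deposited a matrix of counts per library, holding whole numbers of UMIs per gene and barcode that had not been normalized. Cell Ranger 3.1.0, STAR and mm10 are named in the submitters' processing notes, and the file headers carry software version 3.0.2. The annotation release behind the counts is not stated in these sources. Sequencing was paired, with 75 bases per read, per the labels' protocols.

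Barcodes with fewer than 300 genes or over 10% mitochondrial UMIs, and doublets called by Scrublet in scanpy 1.11.5 within each library, were left out (10, 0 and 22 in the 3xTg-AD library, and 45, 2 and 13 in the wildtype library). Barcodes with 5 or more UMIs of any of 6 marker lists of other cell types were set aside (59 in the 3xTg-AD library and 44 in the wildtype library). NK barcodes needed 3 or more UMIs of 7 NK markers and fewer than 3 of the ILC1 genes. No clustering was used.

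Counts were summed over the barcodes of a class in a library and scaled to CPM. Ratios of sums carry exact conditional binomial intervals (scipy 1.17.1, Python 3.11.15), and shares of UMIs exact Clopper-Pearson intervals. Genes needed 100 UMIs over both sides of a comparison, and genes of the translation lists 20. Near-identical copies were found with BLAST 2.17.0 between coding sequences and GENCODE M21 transcripts, and gene coordinates are from that annotation on GRCm38. Ratios, intervals, thinning and Fano factors were tested on simulated data. For ratios and intervals the simulated counts held counting error alone, without spread between barcodes. They therefore check the calculation and say nothing of the intervals beyond counting.

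Genes named are the departing members, the 5 most abundant members, the paralog and stalk genes, the 6 members with the highest Fano factor and up to 4 genes per translation list with large log2 ratios. Some genes that meet these rules are not reported here. Members that passed the threshold in only 1 library, and those just outside it, were added after their values were seen. The members and all lists were chosen with earlier results of these data known. Gas5, on the list of TOP genes, is not used here.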

Additional observations from a re-analysis of the deposited data

Results flagged for a closer look

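In summed UMIs, the library difference in the family's share ran in opposite directions in the 2 kinds of cells. In ILC1-like barcodes the 3xTg-AD over wildtype ratio was 1.06, and in NK barcodes it was 0.898. The difference between these ratios was not tested, since each library is a single sample. ILC1-like shares per barcode had an upper quartile of 32.2% in both libraries. Their lower quartiles were 27.2% in the 3xTg-AD library and 24.3% in the wildtype library. Among barcodes of 3000 to under 4500 UMIs their medians were 28.7% and 28.3%. Gzmc, a gene of the ILC1 rule, had 320 CPM and 1479 CPM in these barcodes. No alternative setting was run for the ILC1-like ratio.

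In 3 members, counting intervals lay on opposite sides of the median member in different libraries or classes, and these differences were not tested either. Rpl15 lay at 0.905 of the median member in Klrg1+ Cd27- over Cd27+ Klrg1- barcodes of the 3xTg-AD library and at 1.11-fold in the wildtype library. Rps24 lay at 1.03-fold in ILC1-like over NK barcodes of the 3xTg-AD library and at 0.957 in the wildtype library. Rpl37a, in 3xTg-AD over wildtype, lay at 1.05-fold in Klrg1+ Cd27- barcodes and at 0.921 in ILC1-like barcodes.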

How the results depend on the processing

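None of 50 alternative values of the share ratios turned its direction, and 29 moved beyond the counting interval. The ratio of Klrg1+ Cd27- over Cd27+ Klrg1- NK barcodes was 0.773 in the 3xTg-AD library and 0.760 in the wildtype library with barcodes thinned to 1400 UMIs, 0.797 and 0.764 with 2 UMIs of another type as the limit, 0.763 and 0.699 among barcodes of 3000 to under 4500 UMIs, 0.678 and 0.684 with 2 UMIs for a positive gene, and 0.750 and 0.764 by median share. The ratio of ILC1-like over NK barcodes was 1.82 and 1.52 with 2 UMIs of another type, 1.68 and 1.39 in the depth band, 1.76 and 1.48 with doublets kept, 1.74 and 1.45 with 5 ILC1 UMIs, and 1.94 and 1.66 by median share. It was 1.76 in the 3xTg-AD library with the 6 ribosomal genes outside the pattern and 1.32 in the wildtype library after thinning. The ratio of 3xTg-AD over wildtype in NK barcodes was 0.901 thinned, 0.906 with the 6 genes, 0.884 with 2 UMIs of another type, 0.928 in the depth band, 0.895 without barcodes under 5% ribosomal protein UMIs, 0.863 scaled by the median of other genes and 0.892 by median share. The depth band and the 5% limit were chosen after seeing the data.

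Of 54 alternative counts, 10 moved. Scaling by the median of other genes put 9 members, in place of 5, at 1.5-fold lower between stages in the wildtype library, and 69, in place of 36, at 1.5-fold higher in its ILC1-like barcodes. Between libraries it put 0 members, in place of 1, at 1.2-fold higher, 19, in place of 11, at 1.2-fold lower and 1, in place of 0, at 1.5-fold lower. Thinning to 1400 UMIs made 1 member (Rpl7a), in place of 0, depart downward between stages, 1, in place of 3, depart upward in ILC1-like barcodes, and 2 (Rpl21 and Rpl23a), in place of 1, depart downward between libraries. Thinning to 100 ribosomal protein UMIs left 0 members above a Fano factor of 1.2, in place of 3 in the 3xTg-AD library and 2 in the wildtype library. The cause of these moves was not tested.

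No paired analysis was possible because each group has 1 library, so no replicate was left out. Depth limits the smaller classes most: the Cd27+ Klrg1+ class had 38 barcodes in the 3xTg-AD library and 29 in the wildtype library, and thinning left out 93 and 136 barcodes.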

Other observations

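A few NK barcodes held almost no ribosomal protein transcripts. Under 5% of UMIs were found in 10 NK barcodes of the 3xTg-AD library and 19 of the wildtype library. Their median depths were 707 and 1651 UMIs, and Malat1 took 7.11% and 1.94% of their UMIs, against 0.922% and 0.610% in the other NK barcodes of these libraries. Mitochondrial genes took 3.93% and 3.30%, against 1.27% and 1.47%. In barcodes left out for holding fewer than 300 genes, the members took 0.108% (0.0465 to 0.212) of UMIs in 10 barcodes of the 3xTg-AD library and 1.12% (1.05 to 1.18) in 45 of the wildtype library. In barcodes set aside for markers of other cell types they took 19.9% in 59 barcodes of the 3xTg-AD library and 25.7% in 44 of the wildtype library, with 32 and 8 of these set aside for microglial markers and 25 and 27 for T cell markers.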
